A study of Mus musculus with 6 samples.

Results

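The 36 genes described here encode histone lysine methyltransferases, which add methyl groups to lysines of the histone tails and of the nucleosome core, and histone lysine demethylases, which remove them. They were listed by name as a gene family, with earlier results of these data known, and the list does not hold every enzyme of its kind (Kdm5c and Nsd2 are described with other genes of the pathways). All 36 were found among the 51912 Ensembl gene identifiers of the count table, and 35 passed the filter on low counts. They were grouped by the residue each enzyme mainly acts on. That gave 7 methyltransferases and 4 demethylases of H3K4 (lysine 4 of histone H3), and 6 methyltransferases and 8 demethylases of H3K9. H3K36 had 3 of each kind. The family also held 1 H3K27 demethylase, 1 H3K79 methyltransferase and 3 related proteins with no settled histone lysine.

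Messenger RNA came from R1 mouse embryonic stem cells, an established line, so that all libraries stand for 1 line. The cells had been kept in 2iLIF, a medium with inhibitors of MEK and GSK3 and the cytokine LIF that holds them in the naive state of pluripotency. All cells were then moved to the serum-free medium N2B27, to which FGF2 was added (100 ng/ml), for 24 h in 3 libraries and for 48 h in another 3. Both groups received FGF2, and cells in 2iLIF or in N2B27 alone were not analysed here, so the effects of FGF2, of the medium and of time cannot be told apart. The labels do not say whether the libraries of a group came from separate cultures, and p-values then measure the spread between these libraries, which may be technical.

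Libraries held between 19574969 and 23133148 estimated counts. Of the 7 embryonic stem cell markers, all were detected, with a summed level between 4154 and 4256 CPM (depth-scaled counts, relative to the library total after TMM scaling) at 24 h and between 3055 and 3141 CPM at 48 h. The sum hides opposite changes. At 48 h 5 of the markers were lower, by log2 fold changes from -0.07 (Pou5f1) to -1.99 (Nanog), and 2 were higher, Utf1 (0.60) and Lin28a (1.55). Feeder fibroblast markers summed to 2.54 to 3.35 CPM at 24 h and 2.53 to 3.83 CPM at 48 h, with 2 of 7 at 0 in every library. Of these, Col1a1 was lower at 48 h (mean 1.03 and then 0.304 CPM) and Dcn higher (0 and then 1.21 CPM). Primitive endoderm markers summed to 6.46 to 8.30 CPM at 24 h and 3.43 to 3.82 CPM at 48 h, mesendoderm markers to 15.7 to 18.5 and 12.8 to 14.8 CPM, and trophoblast markers to 27 to 27.9 and 6.4 to 7.4 CPM. The 5 neural markers summed to 28.9 to 30.4 CPM at 24 h and 75.1 to 79.2 CPM at 48 h, and 3 of them (Sox1, Pax6 and Map2) were higher at 48 h. Whether cells of these types were present, and their share in the results below, was not tested. In bulk RNA, fewer cells of a type and less RNA per cell cannot be told apart.

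Methylation of H3K4 marks promoters and enhancers that are active or poised, H3K36 and H3K79 methylation accompany transcribed gene bodies, and H3K9 and H3K27 methylation accompany silent chromatin. Methyltransferases of the SET domain family and DOT1L, which has a fold of its own, write these marks with S-adenosylmethionine as methyl donor. Demethylases of the LSD type use a flavin, and those of the Jumonji type use iron and alpha-ketoglutarate. In mouse embryonic stem cells several of these enzymes are known for roles in the silencing of retroelements, in the upkeep of the naive state and in the exit from it.

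Between 24 h and 48 h the enzymes shifted in both directions, and the direction differed within some of the residue groups, among them both H3K9 groups. The methyltransferase genes Setd7 (H3K4), Suv39h1, Suv39h2 and Ehmt1 (H3K9) rose, as did the demethylase genes Kdm2b (H3K36), Kdm7a and Kdm4c (H3K9). Of the H3K9 demethylase genes, Kdm3a fell by 31.1% and Kdm3b fell by 32.5%. Changes of the other enzymes were smaller. In edgeR's quasi-likelihood test with adjustment over all 14889 tested genes, 31 of the 35 tested enzyme genes changed at an adjusted p under 0.05, 18 upward and 13 downward. Over all tested genes 62.8% were called, 30.9% upward and 31.9% downward. Among all tested genes with a mean level between 52.2 and 198.1 CPM, which are the quartiles of the tested enzyme genes and a band chosen after the values were seen, 76.9% were called, against 16 of the 17 enzyme genes in that band. The values of the 2 time points did not overlap for 30 of the 35, against 66.9% of all tested genes.

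Most of the changes were small. The median log2 fold change (48 h over 24 h) was 0.08 for the 35 tested enzyme genes and -0.01 for all tested genes, and the median size of the change was 0.25 and 0.26. A called change of at least 0.5 on the log2 scale was found for 9 of the 35, 7 upward and 2 downward. That share of 25.7% was close to the 24.9% of all tested genes, of which 10.2% were upward and 14.7% downward. Within the band of level above, such a change was found for 2 of the 17 enzyme genes and for 12.2% of all tested genes.

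**Figure D1:**
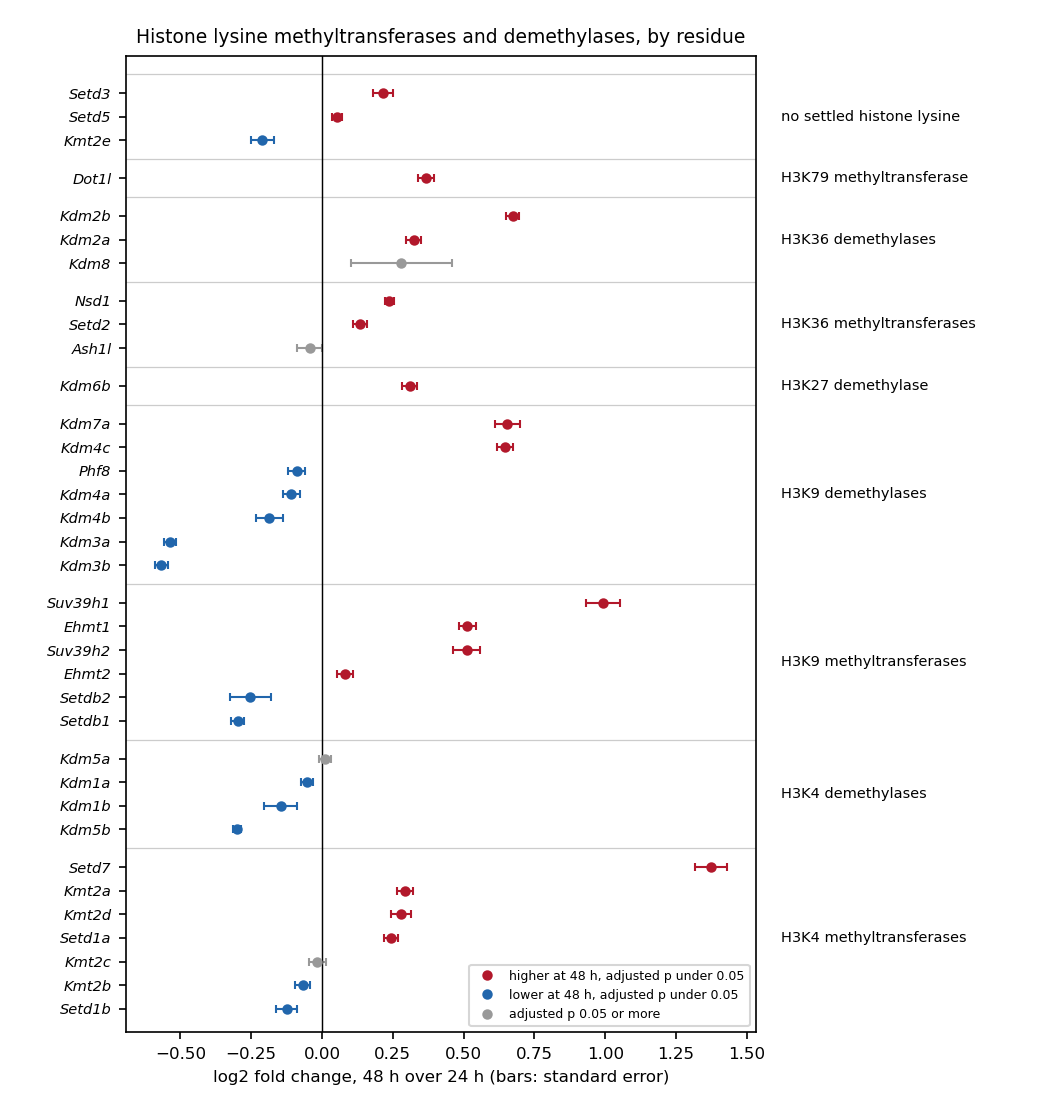
Log2 fold change, 48 h over 24 h of FGF2, for the 35 tested enzyme genes grouped by residue. Points are fitted values from edgeR, bars are standard errors, and colours give the direction of calls at an adjusted p under 0.05. Setd7 lies farthest to the right at 1.37 and Kdm3b farthest to the left at -0.57, and each of the larger residue groups except the H3K4 demethylases and both H3K36 groups holds calls in both directions.

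Setd7 had the largest change. It encodes a monomethyltransferase of H3K4 that also methylates many non-histone proteins. The gene (ENSMUSG00000037111, chr3:51515319-51560879, GRCm38, minus strand) stood at 15.7, 16.7 and 16.7 CPM in the 24 h libraries and at 42.3, 45.2 and 39.96 CPM in the 48 h libraries. Every 48 h library lay above every 24 h library. The change on the log2 scale (48 h over 24 h) was 1.37 ± 0.06 (standard error; adjusted p = 2.42e-12), a 2.59-fold rise.

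Suv39h1 and Suv39h2 encode the enzymes that trimethylate H3K9 at pericentromeric repeats, where the mark is bound by HP1 proteins. Suv39h1 (ENSMUSG00000039231, chrX:8061171-8074760, minus strand) stood at 15.6, 14.8 and 15.2 CPM at 24 h and at 29.3, 29.6 and 31.9 CPM at 48 h. Its log2 fold change was 0.99 ± 0.06 (standard error; adjusted p = 2.66e-10). Suv39h2 (ENSMUSG00000026646, chr2:3455815-3475031, minus strand) stood at 38.1, 34.1 and 33.3 CPM at 24 h and at 49.7, 50.2 and 49.9 CPM at 48 h, a log2 change of 0.51 ± 0.05 (adjusted p = 7.67e-08). Both genes were separated between the times in every library. Exons of Suv39h1 overlap those of Gm14820, an antisense gene with a mean of 20.1 CPM at 24 h and 12.8 CPM at 48 h, which is the opposite direction. Exons of Suv39h2 overlap those of Dclre1c on the opposite strand, at 10.5 CPM at 24 h and 8.83 CPM at 48 h. The counts of Suv39h1 and of Suv39h2 were whole numbers in every library.

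Ehmt1, which encodes GLP, the partner of G9a in the complex that dimethylates H3K9 in euchromatin, also rose. The gene (ENSMUSG00000036893, chr2:24789928-24919614, minus strand) stood at 76.6, 75.4 and 77.8 CPM at 24 h and at 109.3, 108.7 and 110.2 CPM at 48 h, a log2 change of 0.51 ± 0.03 (adjusted p = 1.07e-10). Ehmt2, which encodes G9a itself, stood at 116.6, 114.5 and 122.1 CPM and then at 125.7, 124.9 and 123.5 CPM. The groups did not overlap, but the change of 0.08 ± 0.03 (adjusted p = 0.0209) lost its call in 4 of the 6 fits without 1 library, and scaled by library size alone it was 0.02 (adjusted p = 0.542).

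Both SETDB genes moved the other way. Setdb1, which encodes the H3K9 trimethylating enzyme that the KRAB zinc finger corepressor TRIM28 brings to retroelements, stood at 211.4, 218.1 and 219.3 CPM at 24 h and at 173.4, 177.9 and 176.8 CPM at 48 h. The log2 fold change was -0.30 ± 0.02 (adjusted p = 8.73e-09). Exons of Setdb1 overlap those of Cers2 on the opposite strand, at 53.5 CPM at 24 h and 55.1 CPM at 48 h. Its counts were fractional in every library. Setdb2 stood at 17.2, 19.0 and 18.4 CPM and then at 14.8, 14.6 and 16.4 CPM (-0.25 ± 0.07, adjusted p = 0.00582). The H3K9 methyltransferase genes thus held 4 calls upward and 2 downward among 6 tested. Over all tested genes 30.9% were called upward and 31.9% downward, and no residue group was tested as a set.

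The H3K9 demethylases held 2 calls upward and 5 downward among 7 tested, against 30.9% and 31.9% of all tested genes. Kdm3a and Kdm3b encode Jumonji enzymes that remove mono- and dimethyl marks from H3K9. Kdm3a (ENSMUSG00000053470, chr6:71588972-71632990, minus strand) stood at 445.0, 449.9 and 468.6 CPM at 24 h and at 311.0, 307.7 and 321.6 CPM at 48 h. Its log2 fold change was -0.54 ± 0.02 (adjusted p = 3.33e-12). Kdm3b (ENSMUSG00000038773, plus strand of chromosome 18) stood at 240.1, 235.8 and 240.9 CPM and then at 164.0, 156.2 and 163.8 CPM, a log2 change of -0.57 ± 0.02 (adjusted p = 3.21e-12). All 48 h libraries were below all 24 h libraries for both genes.

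Kdm4c and Kdm7a rose. KDM4C removes trimethyl marks from H3K9 and H3K36, and KDM7A acts on dimethylated H3K9 and H3K27. Kdm4c (ENSMUSG00000028397, chr4:74242497-74405860, plus strand) stood at 103.2, 103.1 and 99.04 CPM at 24 h and at 160.6, 160.1 and 156.7 CPM at 48 h, a log2 change of 0.65 ± 0.03 (adjusted p = 2.47e-12). Kdm7a (ENSMUSG00000042599, chr6:39136623-39206789, minus strand) stood at 33.04, 34.4 and 33.6 CPM and then at 51.4, 56.04 and 51.6 CPM, a log2 change of 0.65 ± 0.04 (adjusted p = 1.48e-09). Neither gene had overlapping values between the times.

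The close relatives of these enzymes within the listed family, where tested, fell slightly. Kdm4b, whose product shares the substrates of KDM4C, fell from 48.5 ± 1.16 to 42.5 ± 2.93 CPM (SD, n = 3; log2 change -0.19, adjusted p = 0.00272). Kdm4a fell from 128.4 ± 4.36 to 119.1 ± 2.03 CPM (-0.11, adjusted p = 0.00437). Phf8, which encodes a demethylase of H3K9 and H4K20 related to KDM7A, changed by -0.09 (adjusted p = 0.0207). That call was lost in 3 of the 6 fits without 1 library and with DESeq2 (adjusted p = 0.128). Kdm4d was not tested: it had 0 counts in each 24 h library and at most 2.13 estimated counts in a 48 h library.

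**Figure D2:**
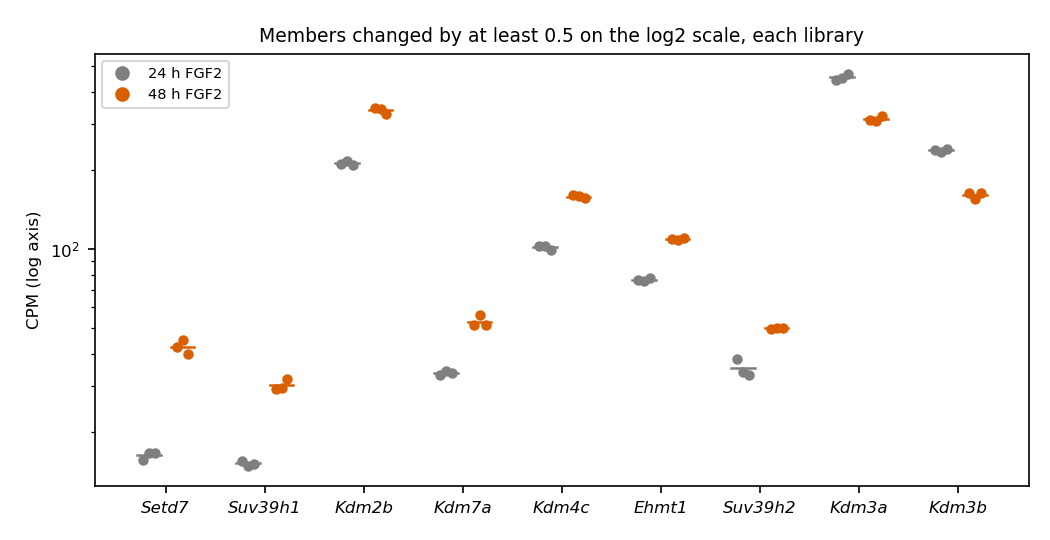
CPM on a log axis in each of the 6 libraries for the 9 enzyme genes with a called change of at least 0.5 on the log2 scale, ordered by that change. Grey points are 24 h and orange points 48 h libraries, and short lines are group means. In none of the 9 do the points of the 2 times overlap. Kdm3a and Kdm3b are the pair with lower values at 48 h.

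Promoter sequence is shown for the 2 enzyme genes that rose most and the 2 that fell most among those with an entry in the RefSeq promoter table (GRCm38.p6), which held 26 of the 36. Each line gives the bases of the 250 before the RefSeq start that also lie before the first base of the gene in GENCODE M21, 5′ to 3′ on the gene's strand, with GC boxes (GGGCGG on either strand) in capitals. They lie at chr3:51560880-51561073 (minus strand) for Setd7, chrX:8074761-8075010 (minus) for Suv39h1, chr6:71632991-71633167 (minus) for Kdm3a and chr1:134559928-134560170 (plus) for Kdm5b.
Setd7: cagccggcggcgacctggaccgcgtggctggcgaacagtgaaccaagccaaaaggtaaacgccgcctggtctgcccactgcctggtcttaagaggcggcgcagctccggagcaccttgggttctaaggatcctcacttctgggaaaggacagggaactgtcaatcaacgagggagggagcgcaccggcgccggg
Suv39h1: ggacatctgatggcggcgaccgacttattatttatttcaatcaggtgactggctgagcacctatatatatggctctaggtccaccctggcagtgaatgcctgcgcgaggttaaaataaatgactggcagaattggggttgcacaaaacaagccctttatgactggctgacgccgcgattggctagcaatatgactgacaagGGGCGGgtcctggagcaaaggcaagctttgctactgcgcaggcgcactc
Kdm3a: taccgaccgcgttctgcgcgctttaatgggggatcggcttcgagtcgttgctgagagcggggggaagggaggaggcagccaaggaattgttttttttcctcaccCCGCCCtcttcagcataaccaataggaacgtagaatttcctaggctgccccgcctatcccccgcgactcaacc
Kdm5b: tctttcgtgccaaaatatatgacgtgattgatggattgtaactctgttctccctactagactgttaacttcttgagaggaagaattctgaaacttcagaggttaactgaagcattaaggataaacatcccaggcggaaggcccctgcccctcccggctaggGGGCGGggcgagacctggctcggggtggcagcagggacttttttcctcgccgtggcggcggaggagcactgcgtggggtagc
The stretch of Setd7 holds 16 CpG dinucleotides in 194 bases and no GC box, and that of Suv39h1 holds 11 CpG in 250 bases and 1 GC box. The stretch of Kdm3a holds 14 CpG in 177 bases and that of Kdm5b 12 CpG in 243 bases, each with 1 GC box.

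Over the full windows of the 26 promoters the enzyme genes were rich in CpG, with a median of 21.5 in 250 bases (range 0 to 56), against a median of 6 over the 27025 genes of the table. The median was 26 for the 15 that rose and 19.5 for the 8 that fell, with ranges of 0 to 56 and 12 to 24 that overlap. A GC box was found in 18 of 26 (69.2%), against 32.9% of all promoters, and in 11 of the 15 that rose and 5 of the 8 that fell. The letters CCAAT stood in 10 of 26 (38.5%, against 34.5% of all), in 2 of the 15 that rose and 6 of the 8 that fell. TATAAA stood in 0 of 26, against 13% of all promoters. CACGTG stood in 1 (6.0% of all), CCGGAAG in 4 (7.1% of all) and TTCNNNGAA in 2 (7.2% of all), among them Setd7. For Setd5, Kdm2b and Setd1a the RefSeq start lies 27570, 724 and 719 bases from the GENCODE start of the gene. For the enzyme genes the RefSeq start nearest the GENCODE start was used, and for all genes of the table the first start listed. That background holds genes whether or not they were expressed here and was not matched for level. Whether these promoter features differ from those of other expressed genes was not tested. The motifs were chosen after the values were seen. Both strands were searched, matches of different motifs may overlap, and a match is not a binding site.

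The H3K4 methyltransferases other than Setd7 moved little. Kmt2a and Kmt2d, which encode MLL1 and MLL4, rose by 0.29 ± 0.03 (adjusted p = 8.15e-08) and 0.28 ± 0.03 (adjusted p = 2.23e-06) on the log2 scale. MLL1 acts at promoters of developmental genes, and MLL4 monomethylates H3K4 at enhancers. Kmt2a stood at 99.1, 97.9 and 97.05 CPM at 24 h and at 120.2, 121.9 and 118.0 CPM at 48 h. Kmt2d stood at 126.9, 130.6 and 127.6 CPM and then at 158.1, 162.9 and 146.1 CPM. Their nearest relatives did not follow. Kmt2b (MLL2) changed by -0.07 ± 0.03 (adjusted p = 0.0348), with overlapping values and a call lost in 4 of the 6 fits without 1 library. Its call was also lost with DESeq2 (adjusted p = 0.127) and with RLE size factors in place of TMM (adjusted p = 0.0587). Kmt2c (MLL3) stood at 136.6 ± 4.94 and 134.9 ± 4.11 CPM (SD, n = 3; log2 change -0.02, adjusted p = 0.671). Leaving out replicate 1 of either time turned its sign (0.0074 and 0.0092), and scaling by library size alone gave -0.08 with a call (adjusted p = 0.0399).

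Of the genes for the SET1 enzymes, which carry out most H3K4 trimethylation at active promoters, Setd1a rose and Setd1b fell. Setd1a stood at 119.6, 122.6 and 120.1 CPM at 24 h and at 142.0, 144.4 and 142.5 CPM at 48 h (log2 fold change 0.24 ± 0.03, adjusted p = 2.88e-07). Setd1b stood at 72.4, 77.6 and 75.7 CPM and then at 70.7, 70.3 and 66.2 CPM (-0.12 ± 0.04, adjusted p = 0.00772). The decrease of Setd1b was no longer called without replicate 3 of 48 h (-0.09, adjusted p = 0.0525). Setd1a shares exon sequence with Gm49388, an annotated protein-coding gene on the same strand with a mean of 1.96 CPM at 24 h and 0.256 CPM at 48 h, and its counts were partly fractional.

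Of the 4 H3K4 demethylases listed here, 3 were called lower and 1 was not called, where 31.9% of all tested genes were called lower. Kdm5b, which encodes a Jumonji enzyme that removes tri- and dimethyl marks from H3K4, fell from 866.5, 866.5 and 877.5 CPM to 704.3, 707.8 and 707.6 CPM (log2 fold change -0.30 ± 0.01, adjusted p = 2.6e-11). The groups were far apart relative to their spread, with an SD of 6.33 CPM at 24 h and 1.99 CPM at 48 h. Its relative Kdm5a stood at 211.7 ± 0.49 and 213.2 ± 1.55 CPM (SD, n = 3; 0.01, adjusted p = 0.673), and scaling by library size alone turned the sign (-0.050, adjusted p = 0.0426). The flavin-dependent LSD enzymes were called lower by small amounts. Kdm1a changed from 288.2 ± 5.60 to 277.8 ± 1.004 CPM (-0.05, adjusted p = 0.0316) and Kdm1b from 25.3 ± 1.42 to 22.9 ± 0.94 CPM (-0.15, adjusted p = 0.0393). These calls were lost in 5 and 3 of the 6 fits without 1 library. DESeq2 called neither gene (adjusted p = 0.141 for Kdm1a and 0.159 for Kdm1b). With RLE size factors in place of TMM the call of Kdm1a was also lost (adjusted p = 0.0593). Exons of Kdm1b overlap those of Dek on the opposite strand, a gene at 424.4 CPM at 24 h and 478.2 CPM at 48 h. The counts of Kdm1b were whole numbers in every library.

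Among the 6 listed H3K36 enzymes Kdm2b changed most. It encodes a Jumonji demethylase whose CXXC zinc finger binds unmethylated CpG and brings a variant Polycomb complex to CpG islands. Kdm2b (ENSMUSG00000029475, chr5:122870665-122989823, minus strand) stood at 211.7, 217.9 and 210.5 CPM at 24 h and at 346.9, 344.8 and 328.4 CPM at 48 h, a log2 change of 0.67 ± 0.02 (adjusted p = 3.52e-13). The times did not overlap. Its exons overlap those of the antisense gene A930024E05Rik, at 2.27 CPM at 24 h and 7.86 CPM at 48 h, and of Rnf34, at 65.9 and 66.2 CPM. Kdm2a, its paralog, rose from 142.0 ± 2.04 to 177.6 ± 5.11 CPM (0.32 ± 0.03, adjusted p = 1.62e-08). Kdm8, whose role as a histone demethylase is disputed, had 51 to 82 counts in a library and a change of 0.28 ± 0.18 (adjusted p = 0.187).

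The 3 listed H3K36 methyltransferases changed less than Kdm2b, whereas Nsd2, described with the other genes of the pathways, rose by 0.71 on the log2 scale. Nsd1, which encodes a dimethyltransferase, rose from 623.9, 617.3 and 624.1 CPM to 729.3, 733.0 and 737.5 CPM (0.24 ± 0.02, adjusted p = 8.68e-10). Setd2, which encodes the trimethylating enzyme that travels with RNA polymerase II, rose from 193.9 ± 3.07 to 213.0 ± 6.37 CPM (0.13 ± 0.03, adjusted p = 0.000184). Ash1l stood at 45.6 ± 1.24 and 44.2 ± 1.98 CPM (-0.04, adjusted p = 0.386), with overlapping values.

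Dot1l, which encodes the H3K79 methyltransferase, rose from 103.2, 103.1 and 106.8 CPM to 137.3, 132.9 and 133.8 CPM (0.37 ± 0.03, adjusted p = 5.45e-09). Kdm6b, which encodes the H3K27 demethylase JMJD3, rose from 88.4 ± 1.24 to 109.5 ± 1.48 CPM (0.31 ± 0.03, adjusted p = 6.21e-08). Of the H3K27 methyltransferase genes of Polycomb complex PRC2, Ezh2 rose from 298.4 ± 2.91 to 353.6 ± 7.59 CPM (0.24, adjusted p = 2.09e-08), and Ezh1 stood at 28.3 ± 0.74 and 28.3 ± 1.24 CPM (adjusted p = 0.96). Of the proteins with no settled histone lysine, Setd3, a histidine methyltransferase of actin, rose from 85.9 ± 4.61 to 99.6 ± 0.53 CPM (0.21, adjusted p = 5.62e-05). Kmt2e fell from 63.3 ± 0.96 to 54.6 ± 3.07 CPM (-0.21, adjusted p = 0.000266). Setd5 changed by 0.05 (adjusted p = 0.0196), a value that scaling by library size alone turned to -0.0077 (adjusted p = 0.731), and its call was lost in 3 of the 6 fits without 1 library.

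Levels were compared between genes as CPM per kilobase of annotated exon. That length merges the exons of all annotated transcripts of a gene and is not the length of the transcripts present. Ranks between genes depend on it, and the SDs do not cover that uncertainty. At 24 h the highest were the genes for the demethylases Kdm1a at 55.6 ± 1.08, Kdm3a at 55.3 ± 1.51 and Kdm5b at 52.6 ± 0.38 CPM per kilobase (SD, n = 3). Kdm1a and Kdm3a did not differ beyond their spread. Nsd1 at 35.6 ± 0.22, Setd5 at 32.3 ± 0.29 and Setdb1 at 31.6 ± 0.62 CPM per kilobase came next. At 48 h Kdm1a was still highest, at 53.6 ± 0.19 CPM per kilobase, and Kdm5b at 42.7 ± 0.12, Nsd1 at 41.9 ± 0.23 and Kdm3a at 38.1 ± 0.88 followed. The levels of the genes that rose most differed widely. Kdm2b was at 19.6 ± 0.37 and Kdm4c at 17.5 ± 0.41 CPM per kilobase at 24 h. Setd7 was at 1.51 ± 0.05 and Suv39h1 at 2.89 ± 0.07 CPM per kilobase at 24 h, and at 48 h they were at 3.93 ± 0.25 and 5.75 ± 0.27.

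**Figure D3:**
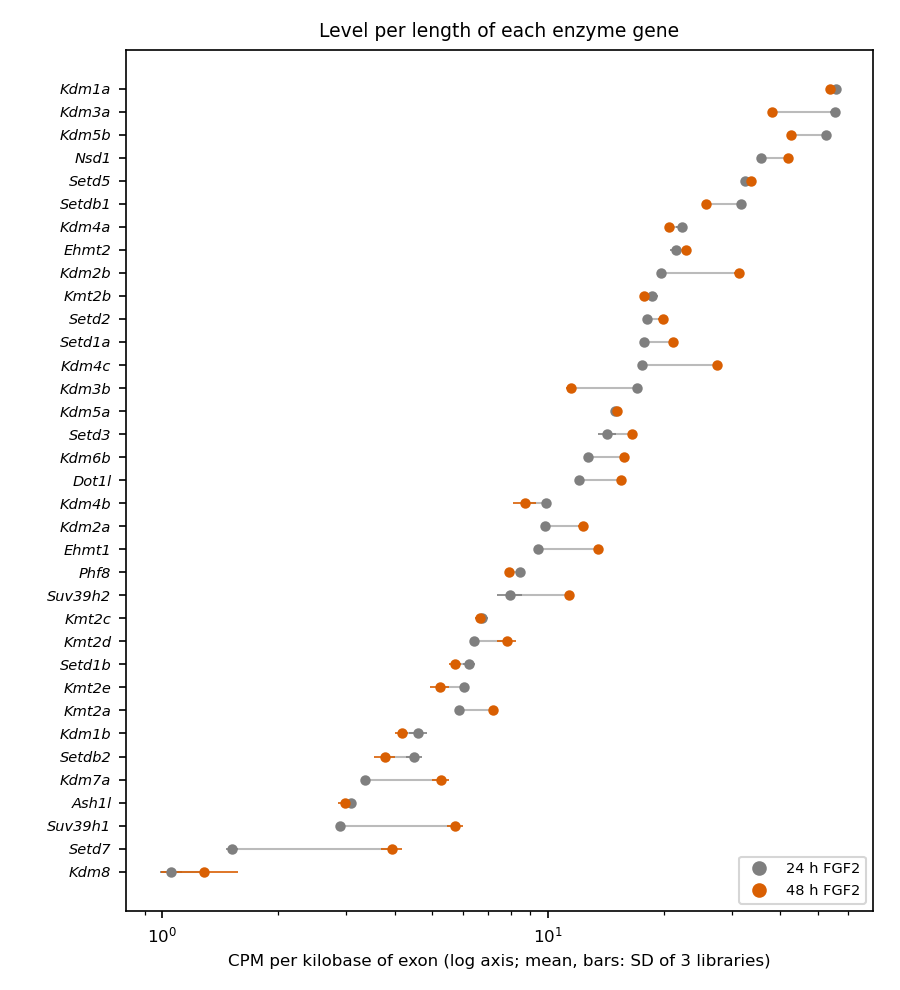
Level of each of the 35 tested enzyme genes in CPM per kilobase of exon (log axis), ordered by the 24 h level. Points are means of 3 libraries at 24 h (grey) and 48 h (orange), with bars for the SD. The levels span from about 1.06 for Kdm8 to 55.6 for Kdm1a at 24 h, and Setd7, near the bottom, has the longest line between the times.

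Summed over a residue group on the same per-kilobase scale, the H3K9 demethylases stood at 133.8, 132.1 and 134.9 at 24 h and at 120.1, 117.9 and 120.2 at 48 h. The H3K9 methyltransferases stood at 77.4, 77.2 and 78.8 and then at 82.1, 82.7 and 83.3. The ratio of demethylases to methyltransferases within a library, which does not depend on the scaling between libraries, was 1.73, 1.71 and 1.71 at 24 h and 1.46, 1.43 and 1.44 at 48 h. Without Kdm3a and Kdm3b, the H3K9 demethylases that fell most, the ratio was 0.81, 0.786 and 0.772 at 24 h. At 48 h it was then 0.861, 0.839 and 0.834, so that its direction turned. Leaving out the genes that fell most moves the change upward by construction. For H3K4 the ratio was 2.06, 1.96 and 2.05 at 24 h and 1.64, 1.62 and 1.68 at 48 h. For H3K36 it moved the other way, from 0.537, 0.552 and 0.527 to 0.719, 0.687 and 0.674. Without Kdm5b the H3K4 ratio was 1.22, 1.15 and 1.2 and then 1.03, 1.02 and 1.06, and without Kdm2b the H3K36 ratio was 0.193, 0.196 and 0.188 and then 0.219, 0.201 and 0.209. The sums hold only the listed enzymes, so that Kdm5c (39.0 ± 0.52 CPM per kilobase at 24 h) and Nsd2 (3.24 ± 0.22) are not in them. Nor is Jmjd1c, a relative of Kdm3a and Kdm3b (15.2 ± 0.33 at 24 h and 23.3 ± 0.23 at 48 h). Kdm4a, Kdm4b and Kdm4c, which also act on H3K36, were counted with H3K9 only. They stood at 22.2, 9.90 and 17.5 at 24 h and at 20.6, 8.69 and 27.3 at 48 h, so the H3K36 ratio depends on this grouping. These sums, chosen after the values were seen, describe messenger RNA, carry no test, and say nothing of enzyme activity.

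Ratios of paralogous enzymes were then compared within each library. Of 12 pairs, 9 had ratios that did not overlap between the times, where the values of 66.9% of single tested genes did not overlap either and the share among pairs of other genes was not computed. The two-sided exact permutation test gave p = 0.1 for each of the 9, which is the lowest possible with 3 libraries at each time, and 0.133 after adjustment over the 12 pairs, so that no pair could pass the threshold. The ratio of Kdm4a to Kdm4c counts turned from above 1 to below 1, from a range of 1.2 to 1.31 at 24 h to a range of 0.736 to 0.756 at 48 h. The ratio of Kdm7a to Phf8 went from a range of 0.41 to 0.447 to a range of 0.686 to 0.76, though Phf8 remained the gene with more counts in every library. Ehmt1 to Ehmt2 went from 0.637 to 0.658 at 24 h to 0.869 to 0.893 at 48 h, and Suv39h1 to Suv39h2 from 0.411 to 0.457 to 0.59 to 0.64. Setd1a to Setd1b went from a range of 1.58 to 1.65 to a range of 2.01 to 2.15, and Kmt2a to Kmt2b from a range of 0.530 to 0.574 to a range of 0.695 to 0.715. Kdm5a to Kdm5b went up from a range of 0.241 to 0.245 to a range of 0.301 to 0.304, and Kdm2a to Kdm2b went down from a range of 0.662 to 0.669 to a range of 0.498 to 0.553. Kmt2c to Kmt2d went from 1.03 to 1.12 at 24 h to 0.825 to 0.928 at 48 h.

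The ratios of 3 pairs overlapped between the times. Kdm3a to Kdm3b stayed between 1.85 and 1.95 at 24 h and between 1.9 and 1.97 at 48 h (log2 difference 0.03, exact permutation p = 0.3), while both genes fell. Setdb1 to Setdb2 lay between 11.5 and 12.3 and then between 10.8 and 12.2 (-0.04, exact permutation p = 0.6). Kdm1a to Kdm1b lay between 10.7 and 11.8 and then between 11.6 and 12.5 (0.09, exact permutation p = 0.3).

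**Figure D4:**
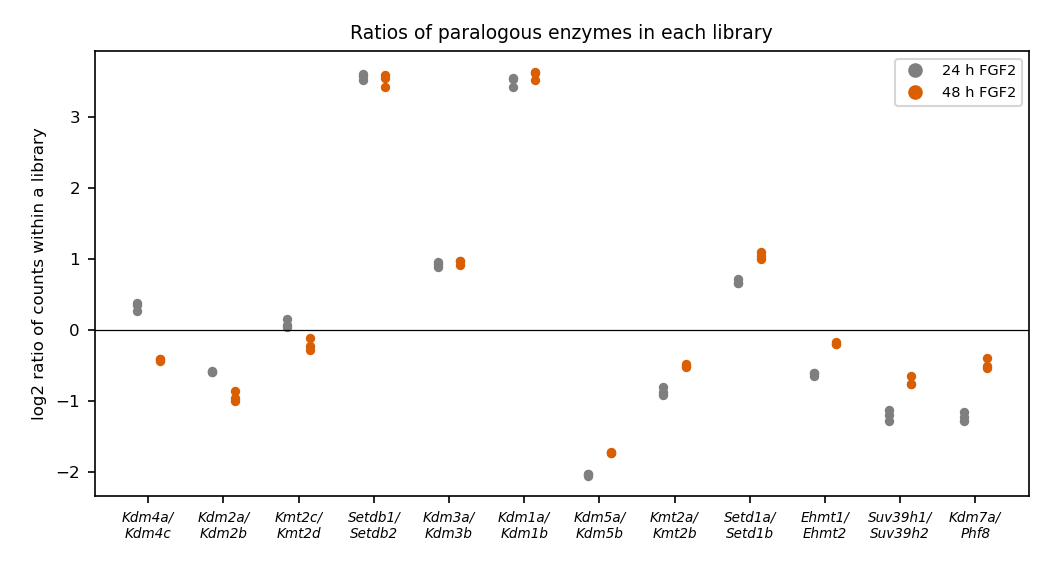
Log2 ratio of the counts of 12 pairs of paralogous enzyme genes in each of 3 libraries at 24 h (grey) and 48 h (orange), ordered by the difference between the times. The ratio of Kdm4a to Kdm4c crosses 0 (equal counts), and the points of the Setdb1, Kdm3a and Kdm1a pairs overlap between the times.

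Of 69 other genes of these pathways in 6 lists, all were tested and 52 changed (75.4%, against 62.8% of all tested genes), 32 upward and 20 downward. The calls of each list below stand against 30.9% of all tested genes called upward and 31.9% downward. All 11 listed partners of H3K9 methylation rose (median change 0.30 on the log2 scale), in a list chosen with earlier results of these data known. Pphln1, a subunit of the HUSH silencing complex, rose from 34.9, 40.1 and 38.8 CPM to 75.99, 77.6 and 75.7 CPM (1.01 ± 0.04, adjusted p = 4.34e-12). Cbx1, which encodes the H3K9 methyl reader HP1 beta, rose from 272.1, 270.3 and 269.7 CPM to 461.4, 464.9 and 460.2 CPM (0.77 ± 0.02, adjusted p = 1.23e-15). Cdyl, which encodes a chromodomain corepressor, rose by 0.49 (adjusted p = 3.18e-10). The other 8, among them the genes for HP1 alpha and HP1 gamma, TRIM28 and the SETDB1 partner ATF7IP, rose by 0.20 to 0.36. Setdb1 itself, with which several of them act, fell.

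The listed partners of the MLL and SET1 complexes, not all of which are shared between the complexes, moved apart. Of 14 partners, 7 rose and 5 fell. Rbbp5 fell from 181.7, 183.3 and 184.7 CPM to 91.6, 88.2 and 85.5 CPM (log2 fold change -1.05 ± 0.03, adjusted p = 8.7e-15), and Wdr5 from 360.8, 354.8 and 373.7 CPM to 229.8, 218.4 and 225.6 CPM (-0.69 ± 0.02, adjusted p = 2.49e-13). Both encode subunits of the core that all H3K4 methyltransferases of this type share. The genes for the other two core subunits, Ash2l and Dpy30, which were singled out after their values were seen, rose by 0.31 (629.2 ± 2.88 and then 780.4 ± 11.5 CPM) and by 0.33 (122.2 ± 3.98 and then 154.3 ± 3.86 CPM). Psip1, which encodes the chromatin tether LEDGF of the MLL1 complex, rose by 0.43 (adjusted p = 4.81e-12).

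**Figure D5:**
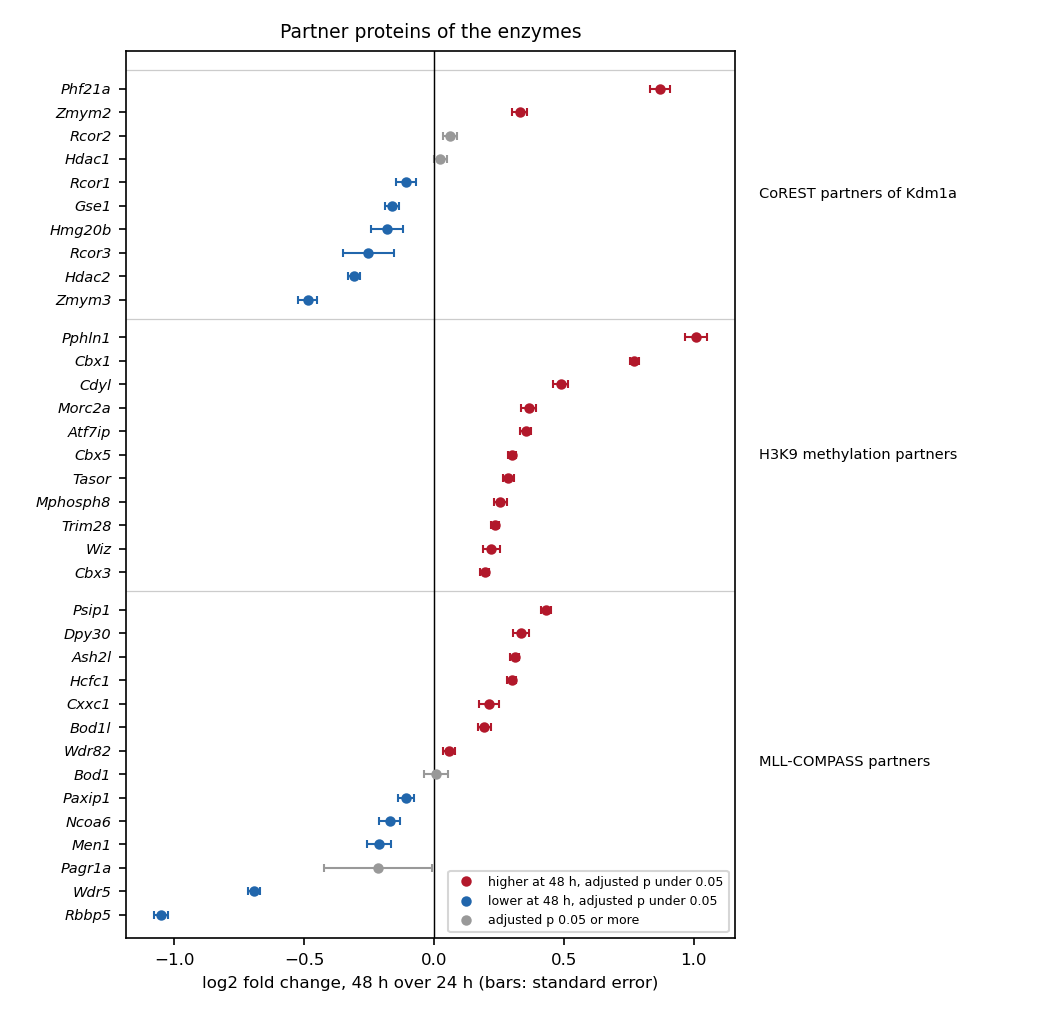
Log2 fold change, 48 h over 24 h, of the genes for partners of KDM1A (CoREST), of H3K9 methylation and of the MLL and SET1 complexes. Points are fitted values, bars standard errors, and colours the direction of calls at an adjusted p under 0.05. The 11 H3K9 partners all lie to the right of 0, and Rbbp5 and Wdr5 lie farthest to the left, at -1.05 and -0.69.

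Of 10 CoREST partners of KDM1A, 2 rose and 6 fell. Phf21a, which encodes the reader of unmethylated H3K4 in that complex, rose from 59.8, 61.5 and 55.01 CPM to 106.5, 109.8 and 105.1 CPM (0.87 ± 0.04, adjusted p = 5.21e-12), whereas Zmym3 fell by 0.49 on the log2 scale (adjusted p = 4.91e-09) and Zmym2 rose by 0.33 (adjusted p = 3.36e-08). DESeq2 called 5 of the 10. Of the 5 DOT1L partners, Mllt10 rose by 0.22, Mllt3 fell by 0.38 and Mllt6 fell by 0.22, and the other two were not called. Of 19 other lysine methyltransferase genes, 5 rose and 6 fell. The largest changes were those of Prdm16 (-0.80, adjusted p = 1.51e-05), of Nsd2, an H3K36 dimethyltransferase gene (0.71, adjusted p = 3.83e-10, from 54.4 ± 3.63 to 89.02 ± 3.14 CPM), and of Smyd3 (-0.51, adjusted p = 1.17e-06). Of 10 other demethylase and Jumonji genes, 6 rose and 1 fell. Kdm5c, an H3K4 demethylase gene related to Kdm5a and Kdm5b and singled out after its values were seen, rose from 281.1, 274.0 and 275.8 CPM to 298.7, 295.2 and 300.6 CPM (0.11 ± 0.02, adjusted p = 0.000163), with no overlap between the times. Jmjd1c, a relative of Kdm3a and Kdm3b, rose from 275.6, 272.5 and 264.2 CPM to 414.4, 419.8 and 411.8 CPM (0.62 ± 0.02, adjusted p = 1.18e-13), opposite to both. Riox2 rose by 0.63 (adjusted p = 2.09e-09), and Hr was at 4.25 ± 0.30 and 2.77 ± 0.20 CPM (-0.62, adjusted p = 0.000869).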

How the data were processed

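Poly(A) messenger RNA libraries (KAPA mRNA HyperPrep, per the labels) were analysed, 3 at each time. The values deposited by the authors are estimated counts (RSEM), 1 per gene and library, with no scaling for depth or length. The submitters' processing notes name cutadapt 1.9.1, STAR 2.5.2, RSEM 1.3.0 and the build GRCm38. The annotation release, strand setting and filters are not given in the sources used here. Symbols and exon lengths came from GENCODE M21 (GRCm38), which matched 51633 identifiers. Promoters came from RefSeq (GRCm38.p6).

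Counts were rounded, filtered with filterByExpr (minimum count 10), scaled by TMM and tested with edgeR 4.0.16 (R 4.3.3; glmQLFit, glmQLFTest, group as the only term). P-values were adjusted by Benjamini-Hochberg over 14889 genes, with a threshold of 0.05. Standard errors are the log2 fold change divided by the square root of F. The test was checked on simulated data, and the recovery required of it for 2-fold changes was lowered once after a first run fell short, with the test left as it was. All enzyme genes could be named; those called with a change of at least 0.5 get values per library, and context lists give at most the 3 largest called changes plus Ezh1 and Ezh2. Ash2l, Dpy30 and Kdm5c were named outside this rule, after their values were seen, as were 4 H3K9 partners given by protein name. DESeq2 1.42.0 and limma 3.58.1 (voom) were alternatives. The members and lists were chosen with earlier results of these data known. Exons of 15 of the 36 genes overlap a gene on the opposite strand, whose reads they could share in unstranded counting, and 6 had fractional counts.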

Additional observations from a re-analysis of the deposited data

How the results depend on the processing

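The number of enzyme genes called (31) ranged from 25 with a threshold of 0.01 to 32 with library size as the only scaling. DESeq2 called 27, with 18 upward and 9 downward, and no longer called Kmt2b, Kdm1a, Kdm1b and Phf8. RLE size factors in place of TMM ended the calls of Kmt2b and Kdm1a. Leaving out 1 library gave 25 to 29 calls, of which 16 to 19 were upward and 9 to 12 downward, and 8 or 9 changes of at least 0.5. Library size alone left 7 such changes and gave 16 calls in each direction, while 25.4% of all tested genes were called upward and 38.2% downward under it. All tested genes called ranged from 7810 to 9792, and from 8737 to 8904 without 1 library. The median of the enzyme genes, 0.08, which is the value of Ehmt2, was 0.021 with library size only and 0.061 to 0.11 without 1 library. With no filter beyond 1 count it was 0.10, over a set that Kdm4d, not tested in the main fit, had joined. CoREST partners called fell from 8 to 5 with DESeq2 and with the threshold of 0.01. The cause was not tested.

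Of 525 single-gene values over 15 alternatives, 488 kept both direction and side of the threshold, 31 were no longer called, 4 became called and 4 reversed, with 2 of the reversed values also crossing the threshold, and 24 of 35 genes kept both throughout. The reversals were Kmt2c (0.0074 and 0.0092 without replicate 1 of either time, with a range of -0.046 to 0.0092 without 1 library) and, with library size only, Kdm5a (-0.050) and Setd5 (-0.0077). Without 1 library, Kdm1a lost its call except without replicate 2 of 24 h, with adjusted p up to 0.125. Kmt2b lost it without replicates 2 and 3 of either time (up to 0.182), Kdm1b without replicate 3 of 24 h and replicates 1 and 2 of 48 h (up to 0.197), and Ehmt2 without replicates 1 and 2 of either time (up to 0.111). Phf8 lost it without replicate 1 of 24 h and replicates 1 and 2 of 48 h (up to 0.0792), Setd5 without replicates 1 and 3 of 24 h and replicate 2 of 48 h (up to 0.101). Leaving out replicate 3 of 48 h ended the call of Setd1b (adjusted p = 0.0525) and gave Kdm8 one (0.43, adjusted p = 0.0472), and library size alone gave one to Kmt2c, Ash1l and Kdm5a and ended those of Ehmt2 and Setd5.

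The H3K9 demethylase to methyltransferase ratio changed by -0.25 on the log2 scale, and by 0.10 without Kdm3a and Kdm3b, a sum chosen after the data were seen. With the replicate block, 31 enzyme genes and 9235 of all genes were called. Deviations of libraries of the same number correlated at -0.05, -0.04 and -0.01, which does not pair the libraries by number. Counts were low for Kdm4d (at most 2.13 in a library) and for Kdm8 (51 to 82).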
